A study of Mus musculus with 12 samples.

Results

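BRG1 is the ATPase of the mSWI/SNF complexes, chromatin remodellers that slide or evict nucleosomes and so help to keep promoters and enhancers accessible to transcription factors. Mouse embryonic stem (mES) cells are pluripotent cells that grow as compact epithelial-like colonies. They are held in an undifferentiated state by LIF and, in 2i medium, by inhibitors of MEK and of GSK3. The transcriptome after the highest dose of a BRG1 degrader is described here by biological function, signalling pathway and lineage, gene group by gene group.

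The comparison took the 2 libraries of cells treated for 24 h with 100 nM dTAG13 and the 2 control libraries, 4 of 12 libraries in all. The other 8 held the doses between. All libraries came from mES cells of B6 background in which the FKBP12 F36V degron was knocked into Brg1, and they were grown on gelatin in serum, LIF and both inhibitors. The knock-in cells were raised from single-cell colonies, and whether more than 1 clone was sequenced is not given in the sources used here. dTAG13 bridges the degron to the cereblon ubiquitin ligase, and the tagged protein is destroyed; the control carried the same knock-in and, by the study's methods, received the solvent DMSO (0 nM). Untagged cells given dTAG13 were not analysed here, so BRG1 loss and any other action of the compound cannot be told apart. Members had to average 1 RPKM or more across the 4 libraries, where RPKM scales read pairs by exon length and normalized library total. That kept 11462 of 24421 genes.

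The targeted gene gave no check of the labels, because the degron acts on the protein: Smarca4, which encodes BRG1, stood at 63.9 and 63.2 RPKM in the control libraries and 70.9 and 70.7 RPKM at 100 nM (log2 fold change 0.16 ± 0.06, adjusted p = 0.042). The protein was not measured in these files. Smarca2, the gene of the alternative ATPase BRM, stayed under the filter at 1.24 and 0.745 RPKM in the control libraries and 0.784 and 0.747 RPKM at 100 nM. The 4 libraries held 5973600 to 6184807 assigned read pairs, of which the ribosomal precursor gene Rn45s took 15.2% to 17.8%. Of 10 markers of mES cell identity, all 10 were tested and 2, Tfcp2l1 and Lin28a, were lower, and their summed level ran from 2210 to 2240 RPKM in the control and from 1940 to 1990 RPKM at 100 nM. The 11 markers of fibroblasts and feeder cells summed to 2.96 to 2.99 RPKM in the control and to 3.08 to 3.59 RPKM at 100 nM, and none of them passed the filter. No marker of the 5 cell types checked stood at 0 in all 4 libraries. In bulk RNA, fewer cells of a type and less RNA per cell cannot be told apart.

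After 24 h at 100 nM a minority of the transcriptome differed from the control, and among the tested genes more fell than rose. At an adjusted p under 0.05 (edgeR quasi-likelihood test) and a change over 1.5-fold, 503 genes were higher at 100 nM, 4.39% of those tested, and 786 were lower, 6.86%. These shares are the background against which the count of every list is set. At an adjusted p under 0.05 whatever the fold (edgeR), 1526 of the 11462 genes were lower and 1141 higher. An unadjusted p under 0.05 (edgeR) held for 3955 genes. List counts at these looser thresholds are to be read beside these numbers. Falls were also larger than rises: 19 of the lower genes changed over 8-fold against 1 of the higher genes, and 407 of 786 falls but 194 of 503 rises exceeded 2-fold. Fold changes are given on the log2 scale as 100 nM minus control, ± the standard error from the fit, with 2 libraries in each group. Over all 11462 genes their median was -0.001. With normalization factors taken over all genes with a count instead of the tested ones, that median moved to -0.08 and the split became 394 higher to 967 lower.

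Called genes were mostly of low or moderate level. Genes that rose went from a median of 3.13 RPKM in the control to 6.09 RPKM at 100 nM, and genes that fell from 7.27 to 3.47 RPKM. Genes not called stood at 9.88 and 9.92 RPKM. Among the 651 genes at 100 RPKM or more in the control, 4 (0.614%) were higher and 21 (3.23%) were lower. Among the 338 genes under 1 RPKM in the control, 84 were higher and 0 lower, a direction that the filter fixed, since such a gene could enter only by rising. Wnt8a, Car14, Evx1, En1, Dact1, Adgrb2 and Esam, named below as rises, are among them. A gene under 1 RPKM at 100 nM could likewise enter only through its control level. Krt17, Inhbb, Des, Ephb3, Hal, Ptges, Klf15, Plet1 and Apobec2, named below as falls, are among such genes. So are Htr5a, Adgrb1, Meg3 and, by the mean of its treated libraries, Gstm2. Beneath the filter, 11742 genes had a count. In a fit of all genes with a count, 373 of these (3.18%) were higher and 89 (0.758%) were lower. Rises thus outnumbered falls beneath the filter. The fit of all genes took its normalization factors over all genes with a count. Just outside the threshold, from 0.9 to 1 RPKM, that fit called 17 of 256 genes higher and 18 lower; just inside, from 1 to 1.1 RPKM, it called 11 of 205 higher and 17 lower.

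**Figure D1:**
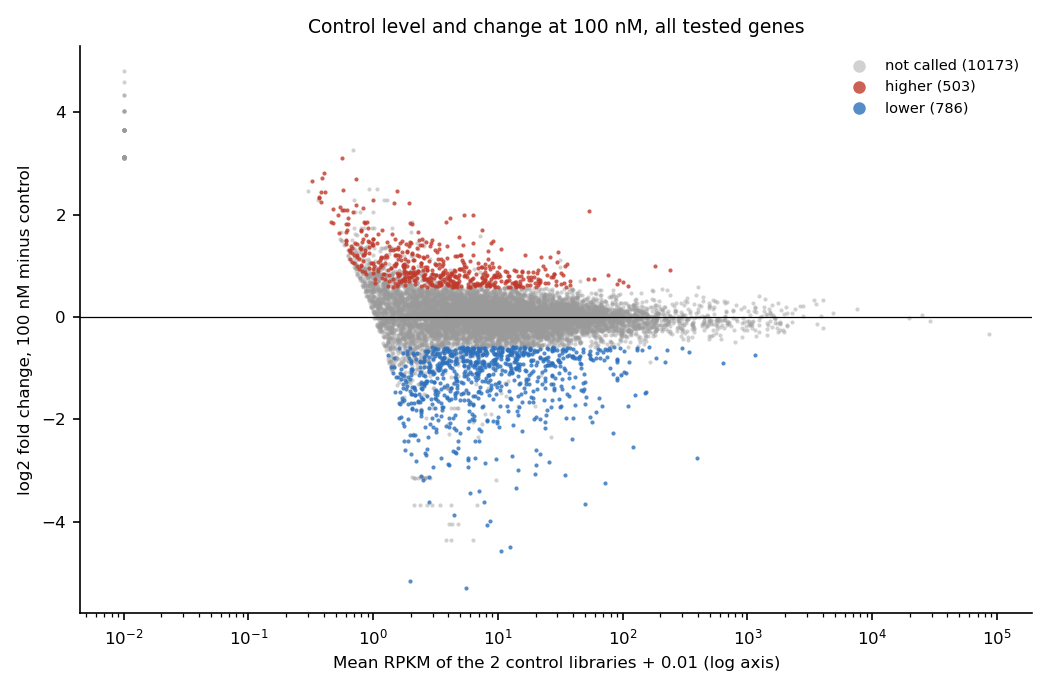
Each point is 1 of the 11462 tested genes, with the mean RPKM of the 2 control libraries on the x axis (log axis, 0.01 added) and the log2 fold change (100 nM minus control) on the y axis; red marks the 503 higher, blue the 786 lower and grey the 10173 genes that were not called. Large falls reach up to control levels near 100 RPKM, the rises crowd at the left, and the slanted edge at the left is the filter at a mean of 1 RPKM.

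The functional groups differed widely in how many of their members changed. The lists were chosen with earlier results of these data known, so their shares describe these lists only. Of 58 lists and symbol families, 49 had 10 or more members tested. In 12 of these the share of lower members exceeded 3 times the background, and in 11 the share of higher members did. Lower members were most frequent among extracellular matrix genes, with 11 of 24 tested, genes of interferon response and antigen presentation, with 6 of 16, actin and SRF target genes, with 10 of 28, serine protease inhibitors and metalloproteases, with 9 of 26, and epithelial junction genes, with 9 of 27. Another 4 of the serine protease inhibitors and metalloproteases were higher. Groups can share members, as Serpinh1 and Mmp14 count in that family and among the matrix genes. Higher members were most frequent among neural genes, with 6 of 14, and among Myc network genes, with 3 of 10. No member was called in 4 of the 49 groups, which were the cytosolic ribosomal proteins, the ribosome biogenesis genes, the subunits of oxidative phosphorylation and the small nucleolar RNAs. Genes under the filter, Hap1, Ifitm2 and the members that complete a count of 5 or fewer are named below after their values had been seen. Among the lists with 10 or more members tested, the medians of the WNT, Nodal, Hippo, autophagy, cell cycle, apoptosis, solute carrier, mitochondrial ribosomal protein, proteasome, serine protease inhibitor and small nucleolar RNA lists changed sign under another scaling or without 1 library, and carry no direction.

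**Figure D2:**
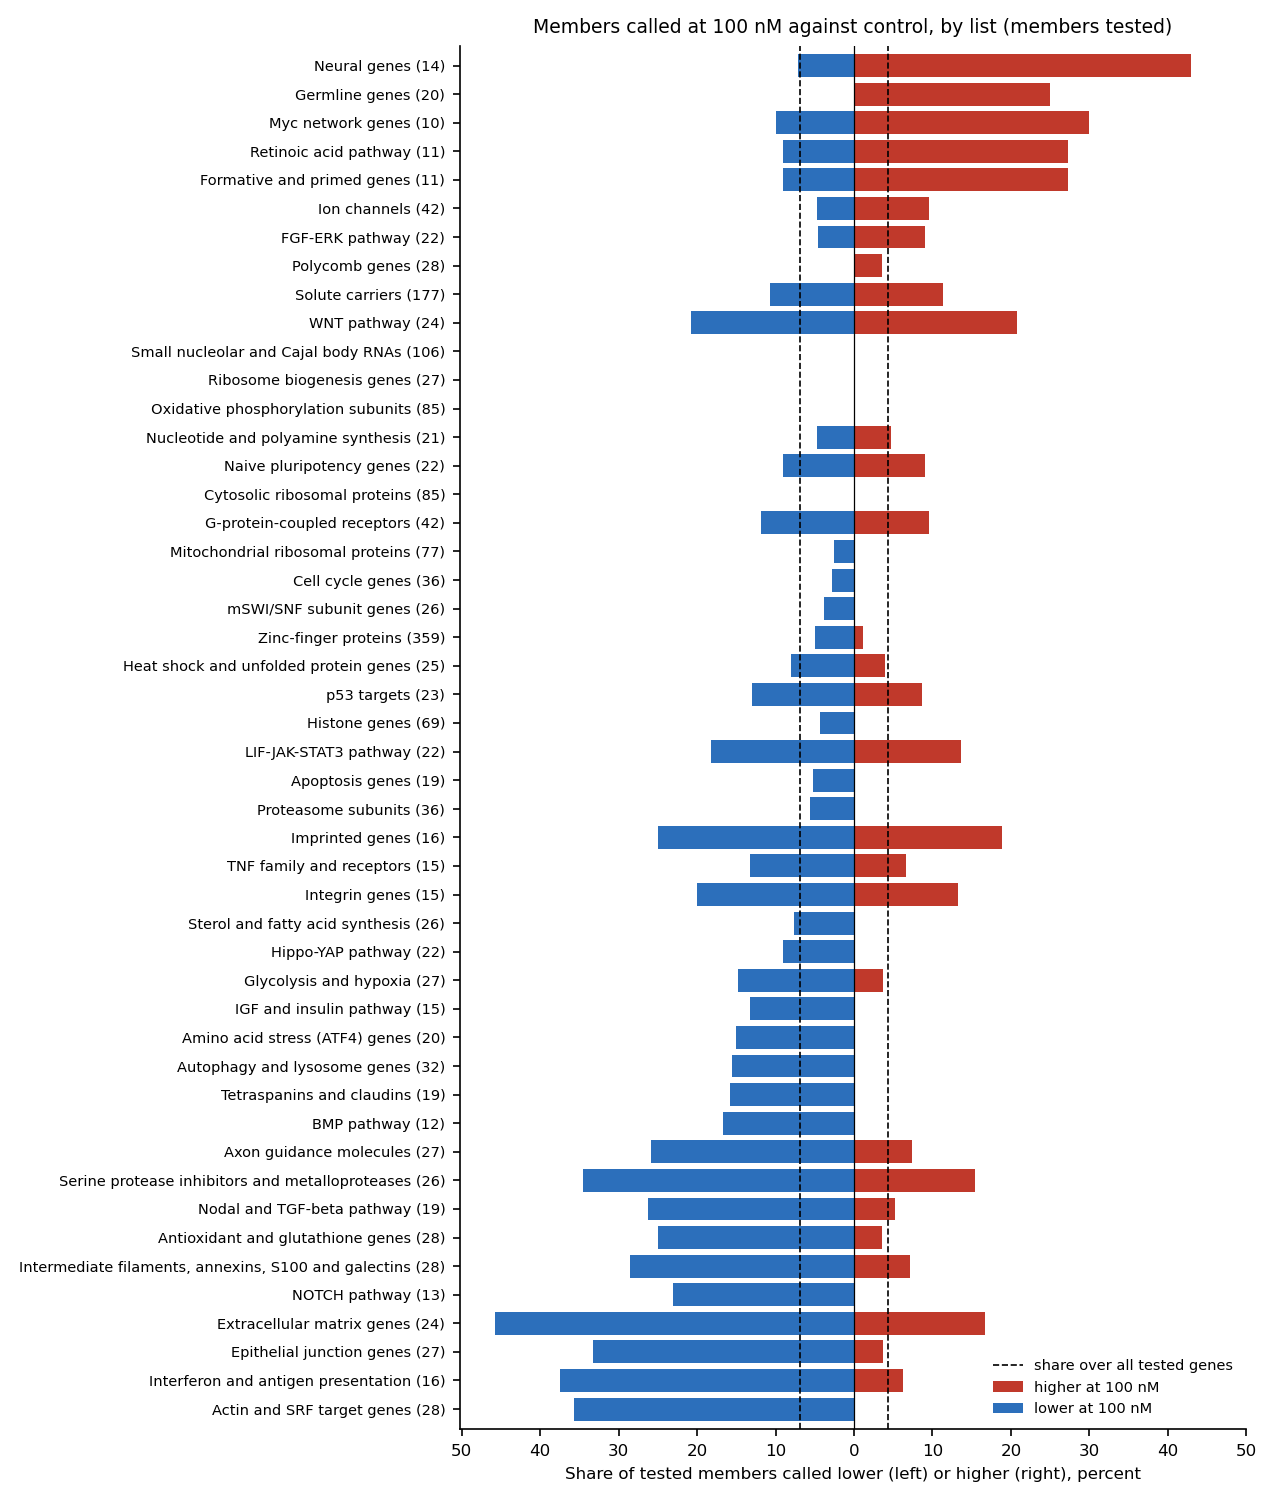
Bars give the percentage of tested members called lower (blue, to the left) or higher (red, to the right) at 100 nM for 48 of the 49 lists and families with at least 10 members tested, with that number in brackets; dashed lines mark 6.86% lower and 4.39% higher over all tested genes. Structural and defence groups extend to the left, neural and germline genes to the right, and the growth machinery shows no bars or short ones.

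Extracellular matrix genes fell more often than they rose. Matrix proteins anchor cells to their surroundings, and basement membranes, made of laminins, type IV collagen, nidogens and perlecan, are laid down by mES cells themselves. Of 43 listed matrix genes 24 were tested, of which 11 were lower and 4 higher, with a median log2 fold change of -0.48. Serpinh1, the collagen chaperone HSP47 of the endoplasmic reticulum, stood at 34.5 and 34.2 RPKM in the control libraries and 3.97 and 4.05 RPKM at 100 nM (log2 fold change -3.09 ± 0.13, adjusted p = 1.8e-15). Nid1, which links laminin to type IV collagen, stood at 22.4 and 21.2 RPKM in the control libraries and 5.01 and 5.96 RPKM at 100 nM (log2 fold change -1.99 ± 0.09, adjusted p = 2.2e-14). Its relative Nid2 fell from 58.9 and 64 to 17.2 and 16.9 RPKM (-1.85 ± 0.08, adjusted p = 1.8e-15). In each of these genes both treated libraries lay far beneath both controls and close to each other.

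The fall took in other kinds of matrix protein too. Sparc, a secreted collagen-binding protein, fell from 118 and 100.3 to 32.6 and 32.6 RPKM (-1.74 ± 0.08, adjusted p = 1.3e-14), and the adhesive glycoprotein fibronectin, Fn1, from 157 and 149 to 54.7 and 55.9 RPKM (-1.47 ± 0.06, adjusted p = 1.2e-15). Among the 9 basement membrane genes, all tested, 5 were lower. The other falls in the list were those of Hspg2 (perlecan), Mmp14, Col18a1, Agrn, Lama1 and Fbln1, from -1.5 for Hspg2 to -0.72 for Fbln1 on the log2 scale. Type IV collagen itself moved the other way. Col4a1 stood at 9.53 and 8.73 RPKM in the control libraries and 14.2 and 14.4 RPKM at 100 nM (log2 fold change 0.64 ± 0.10, adjusted p = 3.1e-05), and Col4a2, its head-to-head neighbour on chromosome 8, rose from 2.18 and 1.21 to 4.61 and 4.83 RPKM (1.48 ± 0.18, adjusted p = 8.1e-07). The pair spans chr8:11198423-11449287 (mm10). P4ha1, a subunit of the enzyme that hydroxylates collagen prolines, and Timp1, an inhibitor of metalloproteases, completed the 4 rises at 0.87 and 0.63; the count was 2 without control library 2. Fbln1 was not called without control library 1 or 100 nM library 1 (log2 fold changes -0.66 to -0.59, adjusted p = 0.091 to 0.14). Col4a1 was not called without control library 2 (log2 fold change 0.58, adjusted p = 0.0027). Timp1 was not called without control library 2 (log2 fold change 0.38, adjusted p = 0.16). Fbln1 was not called with DESeq2's Wald test (log2 fold change -0.72, adjusted p = 0.051). Col4a1 was not called with TMM factors over all genes or no filter on low values (log2 fold change 0.56, adjusted p = 2.6e-07 to 0.00013). Timp1 was not called with TMM factors over all genes or no filter on low values (log2 fold change 0.55, adjusted p = 0.0049 to 0.011).

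Junction genes fell more often than they rose. Tight junctions and desmosomes seal and rivet epithelial sheets, and mES colonies carry many of their components. Of 36 listed junction genes 27 were tested, 9 were lower and 1 was higher, with a median of -0.41. Cldn4, a tight junction claudin, stood at 25.1 and 22.4 RPKM in the control libraries and 5.18 and 6.19 RPKM at 100 nM (log2 fold change -2.06 ± 0.15, adjusted p = 8.9e-11). Jup, the plakoglobin of desmosomes and adherens junctions, fell from 31.1 and 33.7 to 12.7 and 11.8 RPKM (-1.40 ± 0.08, adjusted p = 4.3e-13), and so did the epithelial adhesion molecule Epcam, from 28.9 and 28.2 to 11.5 and 13.3 RPKM (-1.20 ± 0.12, adjusted p = 1.9e-08). Lower genes made up 3 of the 5 tested for desmosomes, namely Jup, Pkp2 and Pkp3. Cldn3, the connexin gene Gjb5 and the membrane protease gene St14 were among the other falls. The cadherins split: E-cadherin, Cdh1, stood at 153 and 155 RPKM in the control libraries and 124 and 127 RPKM at 100 nM, a change under the fold minimum (log2 fold change -0.30 ± 0.05, adjusted p = 0.00017), while P-cadherin, Cdh3, rose from 5.04 and 5.45 to 14.6 and 13.2 RPKM (1.40 ± 0.12, adjusted p = 1.2e-09). Pkp2 was not called without 100 nM library 1 (log2 fold change -0.54, adjusted p = 0.075). Pkp3 was not called without control library 2, 100 nM library 1 or 100 nM library 2 (log2 fold changes -1.61 to -0.73, adjusted p = 0.084 to 0.45). Cldn3 was not called without any one of the 4 libraries (log2 fold changes -1.64 to -1.36, adjusted p = 0.092 to 0.19). Pkp3 was not called with DESeq2's Wald test (log2 fold change -1.47, adjusted p = 0.065). Cldn3 was not called with DESeq2's Wald test, no normalization factors or the replicate block (log2 fold changes -1.51 to -1.45, adjusted p = 0.054 to 0.18).

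Integrins, the receptors through which cells hold the matrix, moved in both directions. Of 15 tested integrin and adaptor genes 3 were lower and 2 higher. The alpha3 chain Itga3 stood at 9.8 and 10.4 RPKM in the control libraries and 2.75 and 2.47 RPKM at 100 nM (log2 fold change -1.95 ± 0.14, adjusted p = 7.9e-11), and the fibronectin-binding chain Itga5 fell from 25.2 and 25.6 to 14.8 and 14.7 RPKM (-0.78 ± 0.09, adjusted p = 2.4e-07), as did Itgb5 (-0.71 ± 0.11, adjusted p = 2.1e-05). Itgb1, the beta1 chain that both alpha chains pair with, rose from 59.6 and 58 to 98.1 and 99.8 RPKM (0.75 ± 0.06, adjusted p = 1.7e-10), and Itga9 was higher by 0.70 on the log2 scale. None of the 6 tested adhesion adaptors was called by edgeR or by DESeq2, although 5 had an unadjusted p under 0.05, and vinculin, Vcl, stood at -0.24. Itga9 was not called without control library 2 or 100 nM library 1 (log2 fold changes 0.63 to 0.64, adjusted p = 0.06 to 0.069).

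Among actin cytoskeleton genes the calls were all falls. Of 28 tested genes of actin and of the targets of SRF, the serum response factor that drives many cytoskeletal genes, 10 were lower, with a median of -0.41; none was higher by edgeR or DESeq2, and 1 rose at an unadjusted p under 0.05. Cnn2, a calponin that binds actin filaments, stood at 30.1 and 31.2 RPKM in the control libraries and 8.96 and 11.2 RPKM at 100 nM (log2 fold change -1.60 ± 0.14, adjusted p = 2.1e-09). Actn1, the crosslinker alpha-actinin, fell from 47.2 and 45.2 to 23.6 and 22.5 RPKM (-1.0 ± 0.08, adjusted p = 4.5e-10) and Flna, filamin A, from 86 and 94 to 49.6 and 48.1 RPKM (-0.88 ± 0.06, adjusted p = 3.1e-11). Actb, cytoplasmic beta-actin, stayed within the fold minimum, from 1751 and 1791 to 1486 and 1419 RPKM (-0.29 ± 0.04, adjusted p = 1.7e-05), and Srf itself was not called (-0.26). Of 17 tested actin-binding proteins 9 were lower and 8 not called, Tagln with the lowest expression among those named here, from 3.12 and 3.06 to 1.14 and 1.13 RPKM (-1.44 ± 0.41, adjusted p = 0.011). Tagln was not called without any one of the 4 libraries (log2 fold changes -1.45 to -1.42, adjusted p = 0.051 to 0.069). Tagln was not called with DESeq2's Wald test (log2 fold change -1.44, adjusted p = 0.058).

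Intermediate filaments gave some of the steepest falls. Keratins form the filaments of epithelia, desmin those of muscle, vimentin and nestin those of mesenchyme and of neural progenitors. Krt17 stood at 7.01 and 6.96 RPKM in the control libraries and 0.762 and 0.537 RPKM at 100 nM (log2 fold change -3.40 ± 0.39, adjusted p = 2.6e-07), and Krt42 at 13 and 14.9 RPKM in the control libraries and 1.81 and 0.945 RPKM at 100 nM (-3.33 ± 0.29, adjusted p = 1.8e-09). Both genes lie in the keratin cluster of chromosome 11, with Hap1 and Jup, also lower, in the same 142 kb (chr11:100256217-100397790, mm10). Krt8, a keratin of simple epithelia, fell from 8.42 and 9.68 to 2.37 and 2.07 RPKM (-2.02 ± 0.25, adjusted p = 7.1e-07) and Des, desmin, from 2.01 and 2.53 to 0.537 and 0.318 RPKM (-2.40 ± 0.42, adjusted p = 9.3e-05). Krt18, the partner of Krt8, overlapped between the groups, with 5.13 and 5.55 RPKM in the control libraries and 3.17 and 5.8 RPKM at 100 nM (log2 fold change -0.25 ± 0.30, adjusted p = 0.6). Vim rose under the fold minimum (0.41 ± 0.07, adjusted p = 4.4e-05) and Nes rose from 1.62 and 2.38 to 5.13 and 5.83 RPKM (1.45 ± 0.16, adjusted p = 1.8e-07). With annexins, S100 proteins, galectins and membrane proteins the list held 28 tested genes, of which 8 were lower and 2, Nes and Lgals3, were higher. Because read pairs that mapped to several places were left out and keratin genes resemble each other, the levels of Krt17 and Krt42 are less certain than those of single-copy genes.

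**Figure D3:**
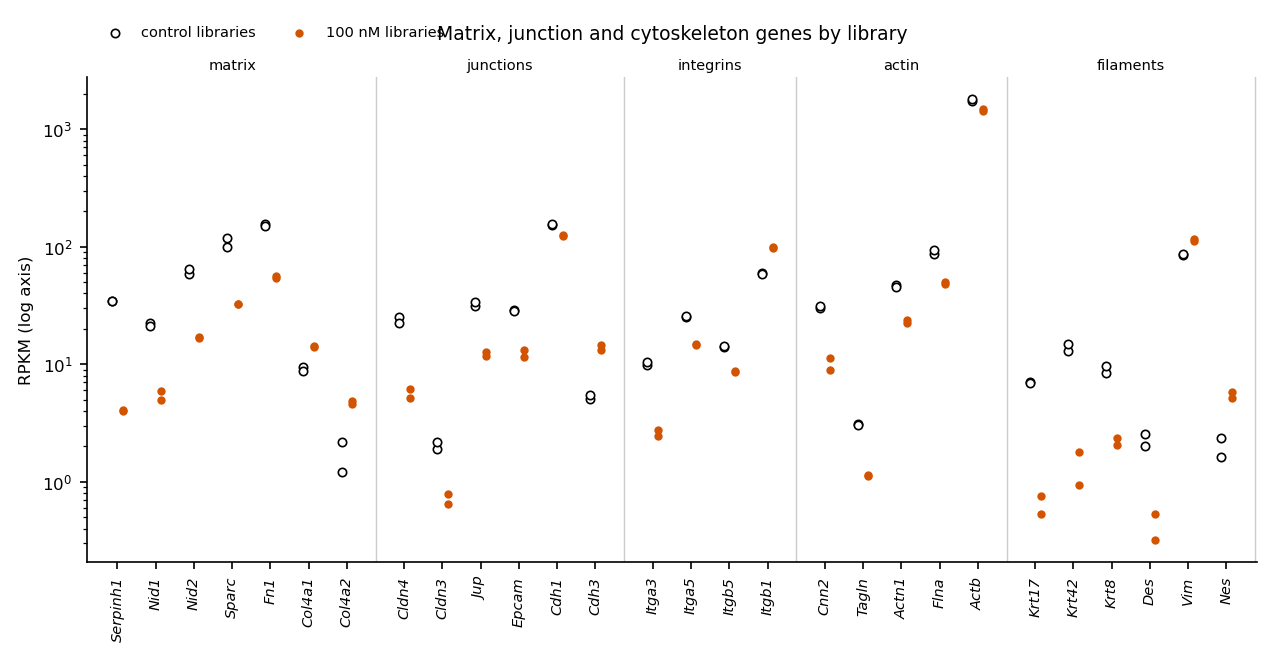
Each gene has its 2 control libraries as open circles and its 2 libraries at 100 nM as orange points, in RPKM on a log axis. Matrix, junction, actin and keratin genes sit lower in the treated libraries, while Col4a1, Col4a2, Cdh3, Itgb1, Vim and Nes sit higher.

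WNT genes changed in both directions, with calls among ligands, receptors, effectors and targets. In the WNT pathway, which the GSK3 inhibitor of the medium switches on downstream of its receptors, 5 of 24 tested genes were higher and 5 lower, with a median of 0.02. Among the receptors, Fzd5 fell from 31.4 and 33 to 12.7 and 12.6 RPKM (-1.35 ± 0.07, adjusted p = 2.2e-13) and Fzd7 from 9.02 and 8.51 to 3.49 and 3.21 RPKM (-1.39 ± 0.13, adjusted p = 6.8e-09), whereas Fzd2 rose from 2.07 and 0.892 to 4.17 and 4.3 RPKM (1.52 ± 0.28, adjusted p = 0.00019). Of the nuclear effectors, Lef1 rose from 2.92 and 3.03 to 8.21 and 8.68 RPKM (1.5 ± 0.18, adjusted p = 4.2e-07) and Tcf7l1 by 0.63, while Tcf7l2 fell by 1.07, all on the log2 scale. The ligand Wnt8a, close to silent in the control, rose from 0.562 and 0.533 to 2.27 and 2.46 RPKM (2.08 ± 0.55, adjusted p = 0.0063), and Wnt5b was lower (-0.72). Tcf7l1 was not called without control library 2 (log2 fold change 0.56, adjusted p = 0.0011). Tcf7l2 was not called without 100 nM library 1 (log2 fold change -0.75, adjusted p = 0.06). Wnt8a was not called without control library 2 (log2 fold change 2.05, adjusted p = 0.056). Tcf7l1 was not called with TMM factors over all genes or no filter on low values (log2 fold change 0.55, adjusted p = 3.7e-06 to 4.7e-05).

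WNT target genes likewise diverged. Axin2, the feedback target most often used as a readout of the pathway, stood at 16.6 and 17 RPKM in the control libraries and 11.4 and 11.4 RPKM at 100 nM, and missed the fold minimum (log2 fold change -0.56 ± 0.09, adjusted p = 6.7e-05). Cdx1 fell from 30.5 and 32.7 to 10.1 and 8.63 RPKM (-1.76 ± 0.12, adjusted p = 4.5e-11), and Sp5 rose by 0.97 on the log2 scale. Without control library 2 the count of higher WNT genes fell from 5 to 3. Beta-catenin, Ctnnb1, stayed under the fold minimum at -0.20. Outside the list, the secreted WNT-binding protein Sfrp1 (chr8:23411502-23449632, mm10) showed 1 of the largest falls of an abundant gene, with 73.3 and 70.6 RPKM in the control libraries and 6.92 and 8.17 RPKM at 100 nM (log2 fold change -3.25 ± 0.08, adjusted p = 2.1e-19).

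In the Nodal and TGF-beta pathway the falls were among ligands and targets and left the receptors uncalled. Nodal and activins signal through SMAD2 and SMAD3, and Lefty proteins are their feedback inhibitors. Of 19 tested genes 5 were lower and 1 higher. Inhbb, a subunit of activin B, stood at 2.69 and 2.28 RPKM in the control libraries and 0.232 and 0.305 RPKM at 100 nM (log2 fold change -3.18 ± 0.32, adjusted p = 3.7e-08). Pmepa1, a feedback inhibitor, fell from 5.73 and 6.82 to 1.74 and 2.08 RPKM (-1.71 ± 0.18, adjusted p = 7e-08). Lefty1 and Lefty2 fell by 0.98 and 0.82 on the log2 scale, while Nodal rose from 23.7 and 29.1 to 45.9 and 45.7 RPKM (0.79 ± 0.11, adjusted p = 5.3e-06). None of the 5 receptors and 3 effectors tested was called by edgeR or DESeq2, with unadjusted p-values under 0.05 for 2 and 1 of them. Lefty1 was not called without control library 1, 100 nM library 1 or 100 nM library 2 (log2 fold changes -1.03 to -0.81, adjusted p = 0.06 to 0.12). Lefty1 was not called with DESeq2's Wald test (log2 fold change -0.98, adjusted p = 0.056).

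Of 12 tested BMP pathway genes 2 were lower. The ligand gene Bmp4 fell from 10.5 and 9.17 to 2.89 and 1.79 RPKM (-2.07 ± 0.22, adjusted p = 6.6e-08) and Fstl1, a secreted follistatin-like antagonist, from 55.7 and 58.1 to 13.7 and 13.8 RPKM (-2.05 ± 0.08, adjusted p = 1.2e-15). The target genes Id1 and Id3 overlapped between the groups. Id1 stood at 56.2 and 66.9 RPKM in the control libraries and 64.7 and 56.7 RPKM at 100 nM (log2 fold change -0.02 ± 0.11, adjusted p = 0.92) and Id3 at 23.8 and 18.2 RPKM in the control libraries and 25.2 and 21.6 RPKM at 100 nM (0.16 ± 0.15, adjusted p = 0.49).

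The LIF and FGF pathways are those on which self-renewal and exit from pluripotency turn. LIF acts through its receptor, JAK kinases and STAT3. Of 22 tested genes of that pathway 4 were lower, namely Tcl1, Tbx3, Tfcp2l1 and Junb, and 3 higher, namely Stat5a, Stat5b and Socs2. At an adjusted p under 0.05 whatever the fold (edgeR), 13 of the 22 differed. Stat3 stood at 18.6 and 19.3 RPKM in the control libraries and 17.2 and 16.1 RPKM at 100 nM (log2 fold change -0.18 ± 0.09, adjusted p = 0.15) and its feedback target Socs3 at 27.6 and 30.9 RPKM in the control libraries and 30.8 and 28.8 RPKM at 100 nM (0.03 ± 0.10, adjusted p = 0.89). Lifr missed the fold minimum, from 16.9 and 16 to 22 and 23.1 RPKM (0.46 ± 0.07, adjusted p = 1.1e-05). Junb was not called without control library 1 or 100 nM library 2 (log2 fold changes -0.58 to -0.52, adjusted p = 0.051 to 0.088). Stat5a was not called without control library 2 or 100 nM library 2 (log2 fold changes 0.82 to 0.85, adjusted p = 0.2 to 0.21). Stat5b was not called without any one of the 4 libraries (log2 fold changes 0.54 to 0.68, adjusted p = 0.089 to 0.21). Junb was not called with no normalization factors (log2 fold change -0.57, adjusted p = 0.019). Stat5a was not called with DESeq2's Wald test (log2 fold change 1.17, adjusted p = 0.059). Stat5b was not called with DESeq2's Wald test, TMM factors over all genes or no filter on low values (log2 fold changes 0.53 to 0.62, adjusted p = 0.078 to 0.15).

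Of 22 tested genes of the FGF and ERK pathway, whose kinase MEK is blocked in this medium, 2 were higher and 1 was lower, and 9 had an adjusted p under 0.05 whatever the fold (edgeR). Fgf4, the main FGF ligand of mES cells, stood at 84.7 and 82.8 RPKM in the control libraries and 56.1 and 60.1 RPKM at 100 nM, a fall under the fold minimum (log2 fold change -0.53 ± 0.07, adjusted p = 1.1e-06). Its relative Fgf17 rose from 10.7 and 12 to 16.7 and 19.3 RPKM (0.66 ± 0.15, adjusted p = 0.0014). Of 10 feedback inhibitors only Spred3 was called, higher by 0.84; Spry2 and Spry4 stood at 0.41 and 0.46 on the log2 scale. Etv1 was the lower gene (-0.67). Fgf17 was not called without 100 nM library 2 (log2 fold change 0.55, adjusted p = 0.04). Spred3 was not called without any one of the 4 libraries (log2 fold changes 0.70 to 1.02, adjusted p = 0.061 to 0.18). Etv1 was not called without control library 2, 100 nM library 1 or 100 nM library 2 (log2 fold changes -0.70 to -0.49, adjusted p = 0.12 to 0.28). Fgf17 was not called with TMM factors over all genes or no filter on low values (log2 fold change 0.58, adjusted p = 0.0012 to 0.0041). Spred3 was not called with DESeq2's Wald test (log2 fold change 0.85, adjusted p = 0.11). Etv1 was not called with DESeq2's Wald test or no normalization factors (log2 fold changes -0.67 to -0.63, adjusted p = 0.069 to 0.14).

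In the NOTCH pathway 3 of 13 tested genes were lower (23.1%): the ligand Jag1, from 3.39 and 3.68 to 2.07 and 1.83 RPKM (-0.86 ± 0.17, adjusted p = 0.00038), the receptor Notch1, from 7.67 and 8.1 to 4.33 and 3.7 RPKM (-0.97 ± 0.11, adjusted p = 1.6e-07), and the target Hes1, from 25.2 and 25.4 to 14.3 and 13.4 RPKM (-0.87 ± 0.13, adjusted p = 2.2e-05). The list median was 0.15 all the same, and the 3 tested ligands had a median of 0.57. At an adjusted p under 0.05 whatever the fold (edgeR), 2 members were higher and 3 lower. In the Hippo pathway, whose effector YAP works with TEAD factors, 2 of 22 were lower. Tead4 fell from 10.3 and 12.9 to 5.14 and 4.28 RPKM (-1.31 ± 0.14, adjusted p = 1.4e-07) and the target Cyr61 from 12.1 and 15.1 to 6.33 and 7.37 RPKM (-0.99 ± 0.16, adjusted p = 4.9e-05), while Yap1 stood at 0.17 and the target Ctgf at -0.56. None of 8 tested hedgehog genes was called by edgeR or DESeq2, with log2 fold changes from -0.57 to 0.46, and 4 had an unadjusted p under 0.05.

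Retinoic acid is made by ALDH1A enzymes and binds nuclear receptors that pair with RXR. Of 11 tested genes 3 were higher (27.3%) and 1 was lower. Aldh1a2 rose from 2.34 and 2.57 to 5.89 and 7.17 RPKM (1.41 ± 0.22, adjusted p = 2.6e-05), and the receptor gene Rarg from 22.8 and 24.8 to 37 and 38.4 RPKM (0.66 ± 0.08, adjusted p = 6e-07). The partner receptor gene Rxra fell from 2.63 and 2.96 to 1.41 and 1.22 RPKM (-1.09 ± 0.21, adjusted p = 0.00036). Rarg was not called with TMM factors over all genes or no filter on low values (log2 fold change 0.58, adjusted p = 1.3e-09 to 4e-06).

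In the insulin and IGF pathway 2 of 15 tested genes were lower. Irs2, an adaptor of both receptors, fell from 5.41 and 4.64 to 1.89 and 1.66 RPKM (-1.5 ± 0.19, adjusted p = 1e-06), and the secreted binding protein Igfbp2 fell from 97.3 and 95.1 to 40.2 and 47.9 RPKM (-1.13 ± 0.09, adjusted p = 9.2e-10). Axon guidance molecules, which also steer epithelial and vascular cells, were called in 9 of 27 cases, 7 lower and 2 higher. The Eph receptor gene Ephb3 stood at 4.91 and 4.72 RPKM in the control libraries and 0.913 and 0.862 RPKM at 100 nM (log2 fold change -2.43 ± 0.21, adjusted p = 1.3e-09), and its relative Ephb4 rose from 7.4 and 9.24 to 18.6 and 17.8 RPKM (1.13 ± 0.11, adjusted p = 1.8e-08). Unc5b, a netrin receptor, fell from 10.1 and 9.41 to 2.38 and 2.38 RPKM (-2.03 ± 0.15, adjusted p = 8.1e-11) and the semaphorin receptor Plxnb2 from 24.4 and 25.7 to 13.4 and 12.8 RPKM (-0.93 ± 0.09, adjusted p = 2.1e-08). Epha2, the most abundant Eph receptor gene of the list, was not called, from 54.7 and 54.7 to 59.8 and 62.7 RPKM (0.16 ± 0.08, adjusted p = 0.13).

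Among genes of antiviral defence and antigen presentation falls outnumbered rises. Interferon-induced IFITM proteins block virus entry and are also abundant in pluripotent cells. Of 16 tested genes 6 were lower, 1 was higher and 9 were not called; of the 5 for antigen presentation 1 was lower. Ifitm3 stood at 119 and 125 RPKM in the control libraries and 22.6 and 19 RPKM at 100 nM (log2 fold change -2.55 ± 0.12, adjusted p = 1.3e-14). Ifitm1 stood at 27.9 and 25.8 RPKM in the control libraries and 4.11 and 11.6 RPKM at 100 nM (-1.77 ± 0.25, adjusted p = 7.5e-06), both treated libraries beneath both controls but 2.82-fold apart from each other. The neighbouring copy Ifitm2 was not called, from 95.4 and 98.9 to 82.9 and 91.7 RPKM (-0.15 ± 0.10, adjusted p = 0.28), and reads shared by these similar genes were left out of the counts. Tapbp, which loads peptides onto MHC class I, fell from 16.8 and 16.8 to 6.58 and 7.5 RPKM (-1.25 ± 0.13, adjusted p = 5.8e-08), as did Nfkbia, Ddx58 and Irf1 (-1.03, -0.93 and -0.84). Irf9, a subunit of the interferon-activated factor ISGF3, rose from 6.23 and 5.78 to 13 and 12.4 RPKM (1.09 ± 0.14, adjusted p = 9.5e-07). B2m, the light chain of MHC class I, overlapped between groups at 8.56 and 8.68 RPKM in the control libraries and 6.9 and 9.09 RPKM at 100 nM (-0.11 ± 0.27, adjusted p = 0.82). Nfkbia was not called without 100 nM library 2 (log2 fold change -0.73, adjusted p = 0.053). Irf1 was not called without control library 1 or 100 nM library 2 (log2 fold changes -0.76 to -0.64, adjusted p = 0.062 to 0.099).

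Of 28 tested antioxidant and glutathione genes 7 were lower, 1 was higher and 20 were not called, with a median of -0.09. Nqo1, a quinone reductase and a standard target of the factor NRF2, stood at 36 and 41.8 RPKM in the control libraries and 7.63 and 7.22 RPKM at 100 nM (log2 fold change -2.39 ± 0.13, adjusted p = 5.2e-13). Of 7 tested glutathione transferases 3 were lower: Gstm2, from 4.08 and 3.56 to 0.629 and 1.09 RPKM (-2.12 ± 0.52, adjusted p = 0.0038), Gstm1, from 7.39 and 6.38 to 3.05 and 1.88 RPKM (-1.47 ± 0.34, adjusted p = 0.0019), and Gsto1, from 36.9 and 37.8 to 17.6 and 15.2 RPKM (-1.19 ± 0.13, adjusted p = 1.4e-07). Gpx7, the metallothionein Mt2 and catalase, Cat, were the other falls. Gss, glutathione synthetase, was the rise (0.83). Gpx4, which protects membranes from lipid peroxides, missed the fold minimum, from 167 and 182 to 254 and 245 RPKM (0.51 ± 0.10, adjusted p = 0.00044). Gstm2 was not called without 100 nM library 1 (log2 fold change -1.79, adjusted p = 0.061). Gstm1 was not called without 100 nM library 2 (log2 fold change -1.17, adjusted p = 0.054). Gpx7 was not called without control library 2 or 100 nM library 2 (log2 fold changes -0.85 to -0.77, adjusted p = 0.14 to 0.17). Gpx7 was not called with DESeq2's Wald test (log2 fold change -1.03, adjusted p = 0.054).

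**Figure D4:**
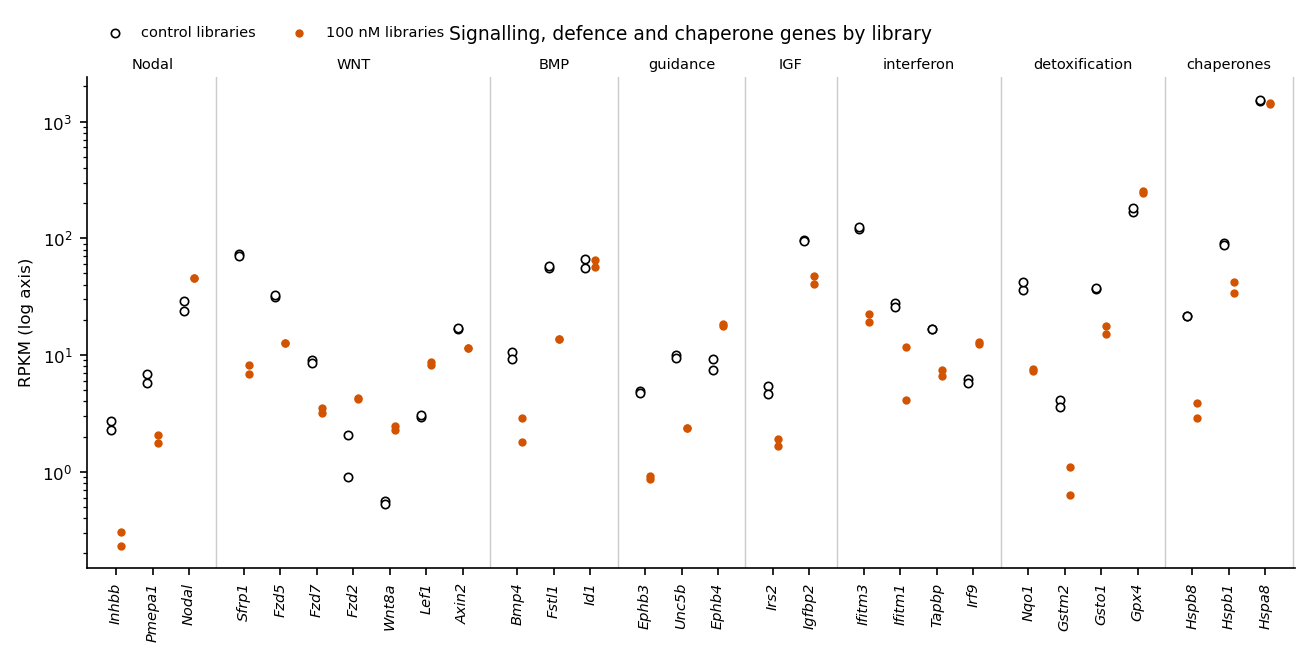
Each gene has its 2 control libraries as open circles and its 2 libraries at 100 nM as orange points, in RPKM on a log axis. Treated libraries sit lower for most genes, higher for Nodal, Fzd2, Wnt8a, Lef1, Ephb4, Irf9 and Gpx4, and mix with the controls for Id1.

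Of 27 tested glycolysis and hypoxia genes 4 were lower (14.8%) and 1 was higher. All 3 genes of phosphofructokinase, which commits glucose to glycolysis, were lower: Pfkp, from 25.1 and 22.4 to 9.63 and 10.3 RPKM (-1.25 ± 0.11, adjusted p = 1.6e-09), Pfkl, from 21.7 and 17.5 to 13.3 and 11.7 RPKM (-0.65 ± 0.13, adjusted p = 0.00044), and Pfkm, from 10.6 and 14.3 to 8.41 and 7.35 RPKM (-0.66 ± 0.13, adjusted p = 0.00057). The lactate exporter Slc16a3 was lower too (-0.64). Gapdh and the glucose transporter Slc2a1 were not called at -0.09 and -0.03, and Bnip3, a mitophagy receptor induced in hypoxia, rose from 2.63 and 2.95 to 6.93 and 5.09 RPKM (1.1 ± 0.30, adjusted p = 0.0092). Without 100 nM library 2 the count of lower genes in the list was 1. Pfkl was not called without control library 1 or 100 nM library 2 (log2 fold changes -0.56 to -0.49, adjusted p = 0.02 to 0.028). Pfkm was not called without control library 2 or 100 nM library 2 (log2 fold changes -0.57 to -0.43, adjusted p = 0.022 to 0.057). Slc16a3 was not called without control library 2 or 100 nM library 2 (log2 fold changes -0.58 to -0.54, adjusted p = 0.083 to 0.11). Bnip3 was not called without control library 1 or 100 nM library 1 (log2 fold changes 0.86 to 1.02, adjusted p = 0.074 to 0.14). Slc16a3 was not called with DESeq2's Wald test (log2 fold change -0.64, adjusted p = 0.066).

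The 26 sterol and fatty acid synthesis genes were all tested, and their median of -0.28 lay beneath that of all genes. Only Stard4 and Fads1 were called, both lower, a share of 7.69% and near the background. At an adjusted p under 0.05 whatever the fold (edgeR), 13 of the 26 were lower and 3 higher. Fasn, fatty acid synthase, stood at 79.1 and 77.5 RPKM in the control libraries and 80.2 and 77.3 RPKM at 100 nM (log2 fold change 0.01 ± 0.05, adjusted p = 0.93). Among 20 tested genes of the amino acid stress response driven by ATF4, 3 were lower. Pck2, a mitochondrial enzyme of gluconeogenesis, fell from 6.88 and 6.05 to 1.89 and 1.29 RPKM (-2.02 ± 0.22, adjusted p = 9.9e-08), asparagine synthetase, Asns, from 216 and 218 to 117 and 119 RPKM (-0.88 ± 0.06, adjusted p = 1.3e-11), and Nupr1 from 29.2 and 25.6 to 13.9 and 14.8 RPKM (-0.93 ± 0.20, adjusted p = 0.0011); Atf4 itself stood at -0.20. Stard4 was not called without control library 1, control library 2 or 100 nM library 1 (log2 fold changes -0.90 to -0.64, adjusted p = 0.063 to 0.18). Fads1 was not called without 100 nM library 1 (log2 fold change -0.53, adjusted p = 0.01). Stard4 was not called with DESeq2's Wald test (log2 fold change -0.88, adjusted p = 0.057).

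Of 32 tested autophagy and lysosome genes 5 were lower, or 3 without control library 1 or without 100 nM library 1. Mitf, of the MiT factors that drive lysosomal genes, fell from 16.6 and 14.7 to 4.07 and 2.63 RPKM (-2.22 ± 0.15, adjusted p = 1.3e-11) and the lysosomal protease gene Ctsc from 14.2 and 17.2 to 4.39 and 5.45 RPKM (-1.67 ± 0.16, adjusted p = 1.9e-08). Hexa, Lamp2 and Gabarap were the other falls, while the autophagy receptor Sqstm1 stood at 50.3 and 45.9 RPKM in the control libraries and 49.5 and 48.2 RPKM at 100 nM (0.02 ± 0.08, adjusted p = 0.88). Among chaperones, 2 of 25 tested were lower (8%) and 1 was higher (4%), near the background shares. Both lower genes were small heat shock proteins: Hspb8 stood at 21.7 and 21.4 RPKM in the control libraries and 3.9 and 2.86 RPKM at 100 nM (log2 fold change -2.67 ± 0.19, adjusted p = 9.6e-11) and Hspb1 fell from 90.4 and 88.4 to 42.1 and 33.8 RPKM (-1.24 ± 0.13, adjusted p = 7.4e-08). The cochaperone gene Bag3 rose (0.86), and neither Hspa8 (-0.09) nor the endoplasmic reticulum chaperone Hspa5 (-0.19) was called. Lamp2 was not called without control library 1 or 100 nM library 1 (log2 fold changes -0.56, adjusted p = 0.019 to 0.023). Gabarap was not called without control library 1, 100 nM library 1 or 100 nM library 2 (log2 fold changes -0.71 to -0.49, adjusted p = 0.057 to 0.18). Bag3 was not called without control library 1, control library 2 or 100 nM library 2 (log2 fold changes 0.65 to 1.03, adjusted p = 0.068 to 0.26). Gabarap was not called with DESeq2's Wald test (log2 fold change -0.63, adjusted p = 0.065). Bag3 was not called with DESeq2's Wald test, TMM factors over all genes or no filter on low values (log2 fold changes 0.78 to 0.87, adjusted p = 0.052 to 0.14).

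In the machinery of growth and division few genes passed the fold minimum. Of 36 tested cell cycle genes 1 was lower, the kinase inhibitor Cdkn1b, from 8.67 and 10.0 to 5.13 and 6.21 RPKM (-0.72 ± 0.16, adjusted p = 0.0012), and the median was -0.01. Ccne1 and Ccnb1 stood at 0.13 and -0.13, and the 11 replication genes lay between -0.23 and 0.10. None of the 85 cytosolic ribosomal protein genes, 27 ribosome biogenesis genes and 85 subunits of oxidative phosphorylation was called by edgeR or DESeq2, with medians of -0.12, 0.11 and -0.06. At an adjusted p under 0.05 whatever the fold (edgeR), 25 ribosomal protein genes were lower and 9 ribosome biogenesis genes higher. Of the oxidative phosphorylation subunits 9 were lower and 2 higher. Both shares lay beneath those over all 11462 tested genes, of which 1526 were lower and 1141 higher. At an unadjusted p under 0.05 the 3 groups had 44, 11 and 22 such genes, and the 106 tested small nucleolar RNAs had 9. Over all 11462 tested genes there were 3955. The small nucleolar RNAs followed single libraries: their median was 0.15 with all 4, 0.65 without control library 1, when 5 were called higher, and -0.18 without control library 2. Nucleolin, Ncl, stood at 395 and 377 RPKM in the control libraries and 389 and 379 RPKM at 100 nM (log2 fold change -0.01 ± 0.04, adjusted p = 0.95). Of 69 tested histone genes 3 were lower, a count that was 1 with no normalization factors and 6 with no filter. At an adjusted p under 0.05 whatever the fold (edgeR), 27 were lower, and the median was -0.27. Of 36 proteasome subunit genes 2 were lower, Psmb10 of the immunoproteasome, from 13.7 and 11.5 to 6.74 and 5.5 RPKM (-1.04 ± 0.19, adjusted p = 0.00023), and the germ cell subunit Psma8. Psma8 was not called without control library 1 or 100 nM library 2 (log2 fold changes -0.50 to -0.42, adjusted p = 0.14 to 0.21). Psma8 was not called with DESeq2's Wald test, no normalization factors or upper-quartile factors (log2 fold changes -0.59 to -0.55, adjusted p = 0.022 to 0.084).

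Of 23 tested p53 genes 3 were lower (13%) and 2 higher (8.7%), and 13 had an adjusted p under 0.05 whatever the fold (edgeR). Perp, a desmosomal p53 target, fell from 6.65 and 8.18 to 2.68 and 1.71 RPKM (-1.75 ± 0.27, adjusted p = 2e-05), Btg2 from 12.6 and 14.1 to 7.36 and 7.11 RPKM (-0.88 ± 0.14, adjusted p = 1.9e-05), while Ei24 fell by 0.63 on the log2 scale; Aen rose from 10.2 and 8.72 to 17.3 and 15.5 RPKM (0.80 ± 0.13, adjusted p = 6.4e-05) and Pmaip1 by 0.62. Trp53 and its target Cdkn1a were under the fold minimum at -0.21 and 0.39. Of 19 tested apoptosis genes only Bid, a BH3-only protein, was called, from 30.8 and 32.1 to 16.6 and 15.5 RPKM (-0.97 ± 0.11, adjusted p = 2e-07). In the Myc network 3 of 10 tested genes were higher and 1 was lower: Mycn and Myc were higher by 1.26 and 0.93, Mlxip by 0.64, and Mycl was lower (-1.09). Among 21 tested genes of nucleotide and polyamine synthesis, spermidine synthase, Srm, rose (0.64) and Umps, which completes UMP synthesis, fell (-0.60). Umps was not called without control library 1 or 100 nM library 1 (log2 fold changes -0.56 to -0.52, adjusted p = 0.00038 to 0.0009). Ei24 was not called with no normalization factors (log2 fold change -0.58, adjusted p = 0.00031). Pmaip1 was not called with TMM factors over all genes or no filter on low values (log2 fold change 0.54, adjusted p = 3.2e-09 to 6.8e-06). Mlxip was not called with TMM factors over all genes or no filter on low values (log2 fold change 0.56, adjusted p = 1.2e-06 to 0.00013). Srm was not called with TMM factors over all genes or no filter on low values (log2 fold change 0.56, adjusted p = 7.3e-11 to 7.4e-07). Umps was not called with no normalization factors or upper-quartile factors (log2 fold changes -0.58 to -0.56, adjusted p = 6.6e-06 to 6.9e-05).

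Most pluripotency genes were not called, as held for 10173 of the 11462 tested genes, although many shifted. All 22 naive pluripotency genes were tested, 2 were higher (9.09%) and 2 lower (9.09%). Both shares were above the background of 4.39% and 6.86%. At an adjusted p under 0.05 whatever the fold (edgeR), 9 were higher and 7 lower. Dppa2 rose from 33.2 and 36 to 64.7 and 72.6 RPKM (0.99 ± 0.09, adjusted p = 5.9e-09) and the nuclear receptor gene Nr5a2 from 21.5 and 21.7 to 35.2 and 35.9 RPKM (0.72 ± 0.09, adjusted p = 5e-07). Pecam1, a surface marker shared by naive cells and endothelium, fell from 13.9 and 12.2 to 3.36 and 2.68 RPKM (-2.11 ± 0.17, adjusted p = 4.6e-10), and Lin28a, an inhibitor of let-7 maturation, from 73.1 and 75.8 to 47.5 and 48 RPKM (-0.64 ± 0.07, adjusted p = 4e-08). Zfp42 stood at 60.5 and 70.5 RPKM in the control libraries and 71.5 and 71 RPKM at 100 nM (log2 fold change 0.12 ± 0.08, adjusted p = 0.33) and Klf2 at 75.1 and 76.6 RPKM in the control libraries and 73.1 and 81.6 RPKM at 100 nM (0.03 ± 0.08, adjusted p = 0.84). The formative and primed genes gave 3 rises and 1 fall among 11 tested. Car14 rose from 0.631 and 0.498 to 2.84 and 3.6 RPKM (2.49 ± 0.46, adjusted p = 0.00018), and Zic2 from 7.03 and 8.56 to 12.5 and 13.7 RPKM (0.74 ± 0.14, adjusted p = 0.0003), Lef1 was the other rise and Sox4 the fall. Otx2, the leading formative factor, stayed under the filter at 0.128 and 0.0605 RPKM in the control libraries and 0.184 and 0.364 RPKM at 100 nM. Sox4 was not called without control library 1 or 100 nM library 1 (log2 fold changes -0.84 to -0.41, adjusted p = 0.054 to 0.24).

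Neural genes had the highest share of rises among the lists with 10 or more members tested. Nestin and the neurofilaments are cytoskeletal proteins of neural progenitors and neurons. Of 40 listed neural genes 14 were tested, and 6 were higher and 1 lower, with a median of 0.53. Ina, alpha-internexin, stood at 6.88 and 8.02 RPKM in the control libraries and 25 and 23.8 RPKM at 100 nM (log2 fold change 1.71 ± 0.13, adjusted p = 1.6e-10). Nefl, the light neurofilament, rose from 7.34 and 9.22 to 22 and 18.7 RPKM (1.29 ± 0.15, adjusted p = 2e-07), and the neural adhesion gene Ncam1 from 1.67 and 1.48 to 3.47 and 4.36 RPKM (1.32 ± 0.15, adjusted p = 2.4e-07). Nes, Tubb3 and Chga were also higher, and Mapt, the microtubule protein tau, was lower (-0.88). In each of the 7 the treated libraries did not overlap the controls. Chga was not called without control library 2 (log2 fold change 0.54, adjusted p = 0.034).

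Several neural transcription factors were at trace levels. Of the 26 listed neural genes under the filter, 5 were higher in the fit of all genes, against 3.18% of all such genes, and none was lower. Pax6, a master regulator of neural progenitors, had 1 and 2 read pairs in the control libraries and 28 and 28 at 100 nM, higher by a ratio of 18.4 with a 95% counting interval from 5.97 to 91.7. Zic1 had 0 and 0 read pairs in the control libraries and 13 and 7 at 100 nM, which is at least 3.28-fold higher if 3 read pairs per library are taken for the control. The synaptic vesicle gene Syp had 2 and 0 read pairs in the control libraries and 16 and 12 at 100 nM, higher by a ratio of 13.8 with a 95% counting interval from 3.47 to 119. Elavl4 and Sox21 were the other 2, at up to 1.1 and 0.941 RPKM. The 6 neural markers used to check cell identity summed to 35.3 and 38.2 RPKM in the control libraries and to 64.3 and 65.8 RPKM at 100 nM, and Tubb3 rose from 30.6 and 33.9 to 58.1 and 59.8 RPKM (0.87 ± 0.09, adjusted p = 3.8e-08). The part of neural cells in these values was not tested.

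Other lineages showed scattered changes. Of 8 tested trophectoderm and placenta genes 3 were higher, among them Cdx2 and the retrotransposon-derived placental gene Peg10, which stood at 52.6 and 53.8 RPKM in the control libraries and 229 and 217 RPKM at 100 nM (log2 fold change 2.07 ± 0.06, adjusted p = 3.3e-19). Tfap2c rose from 3.62 and 3.11 to 4.72 and 6.14 RPKM (0.69 ± 0.20, adjusted p = 0.011) and Tead4 was the fall. The 6 trophectoderm markers checked summed to 12.7 and 10.2 RPKM in the control and 18.2 and 16.5 RPKM at 100 nM, and the part of such cells in the result was not tested. Beneath the filter the placental factors Gata3, with 28 and 23 read pairs in the control libraries and 12 and 10 at 100 nM, and Ascl2, with 11 and 11 read pairs in the control libraries and 2 and 3 at 100 nM, were lower in the fit of all genes, against 0.758% of genes there. In that fit 1 other listed placental gene beneath the filter was higher, against 3.18% of genes there. None of the 4 tested primitive endoderm genes was called by edgeR or DESeq2, and 3 had an unadjusted p under 0.05. Their largest log2 fold change was 0.58. All listed endoderm genes summed to 420 and 422 RPKM in the control libraries and to 627 and 616 RPKM at 100 nM. That increase lay in the membrane and secreted markers, with 418 and 420 RPKM in the control and 624 and 613 RPKM at 100 nM. The 8 endoderm factors, none of them tested, summed to 2.47 and 1.78 RPKM in the control and 2.64 and 2.2 RPKM at 100 nM. The median log2 fold change of the 4 tested genes was 0.04. Beneath the filter 1 listed endoderm gene, Pdgfra, was higher and 1 was lower in the fit of all genes. The endoderm factor Gata6 stood at 0.107 and 0.101 RPKM in the control libraries and 0.206 and 0.153 RPKM at 100 nM. Tfap2c was not called without control library 2 or 100 nM library 2 (log2 fold changes 0.49 to 0.58, adjusted p = 0.12 to 0.18). Tfap2c was not called with DESeq2's Wald test (log2 fold change 0.70, adjusted p = 0.051).

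Of 7 tested primitive streak and mesoderm genes 2 were higher, Evx1, from 0.653 and 0.788 to 3.95 and 2.71 RPKM (2.19 ± 0.41, adjusted p = 0.00025), and Nodal, and 1 lower, Cdx1. T, the brachyury gene of the streak, stood at 5.51 and 4.51 RPKM in the control libraries and 7.48 and 6.51 RPKM at 100 nM (log2 fold change 0.48 ± 0.18, adjusted p = 0.058). The receptors Pdgfra, with 3 and 6 read pairs in the control libraries and 28 and 20 at 100 nM, and Kdr, with 4 and 3 read pairs in the control libraries and 21 and 29 at 100 nM, were higher in the fit of all genes, at up to 0.684 and 0.864 RPKM. Pdgfra was listed for primitive endoderm as well as for mesoderm. Of 7 tested blood and endothelium genes, Kit, the stem cell factor receptor, fell from 12.7 and 11.3 to 3.08 and 3.64 RPKM (-1.84 ± 0.14, adjusted p = 2.8e-10), Pecam1 fell, and the endothelial adhesion gene Esam rose from 1.01 and 0.698 to 3.02 and 3.15 RPKM (1.84 ± 0.41, adjusted p = 0.0015). Desmin was the only call among 7 tested heart and muscle genes. Beneath the filter 2 of 17 heart and muscle genes were higher in the fit of all genes and 0 lower. Of 16 blood and endothelium genes there 2 were higher and 1 lower.

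Of 20 tested germline genes 5 were higher, or 3 without control library 1 or without 100 nM library 2. None was lower by edgeR or DESeq2, and 3 fell at an unadjusted p under 0.05. The 3 X-linked homeobox genes of the list were not called, with values from -1.35 to -0.50 on the log2 scale. Piwil2 and Mael, of the piRNA pathway that silences transposons in germ cells, rose from 3.86 and 3.69 to 7.03 and 7.21 RPKM (0.92 ± 0.14, adjusted p = 1.1e-05) and from 2.1 and 2.09 to 4.68 and 4.41 RPKM (1.11 ± 0.31, adjusted p = 0.01). Ddx4, the germ cell helicase VASA, rose from 11.2 and 9.6 to 17.6 and 18.6 RPKM (0.80 ± 0.12, adjusted p = 1.4e-05), and Tfap2c and Sycp1 completed the count. Dazl missed the fold minimum, from 8.24 and 9.94 to 12.5 and 13.7 RPKM (0.52 ± 0.13, adjusted p = 0.0031). Beneath the filter Prdm1, which specifies primordial germ cells, fell in the fit of all genes, with 30 and 36 read pairs in the control libraries and 9 and 6 at 100 nM (log2 fold change -2.22 ± 0.42, adjusted p = 3e-06). Of 4 tested genes of the cleavage-stage programme none was called by edgeR or DESeq2, 1 had an unadjusted p under 0.05, and the multi-copy gene Dux had 3 and 1 read pairs in the control libraries and 15 and 16 at 100 nM, higher by a ratio of 7.62 with a 95% counting interval from 2.69 to 29.7. Mael was not called without control library 1, control library 2 or 100 nM library 1 (log2 fold changes 1.07 to 1.11, adjusted p = 0.057 to 0.066). Tfap2c was not called without control library 2 or 100 nM library 2 (log2 fold changes 0.49 to 0.58, adjusted p = 0.12 to 0.18). Sycp1 was not called without control library 1 or 100 nM library 2 (log2 fold changes 0.41 to 0.60, adjusted p = 0.11 to 0.23). Tfap2c was not called with DESeq2's Wald test (log2 fold change 0.70, adjusted p = 0.051). Sycp1 was not called with TMM factors over all genes or no filter on low values (log2 fold change 0.58, adjusted p = 0.015 to 0.031).

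**Figure D5:**
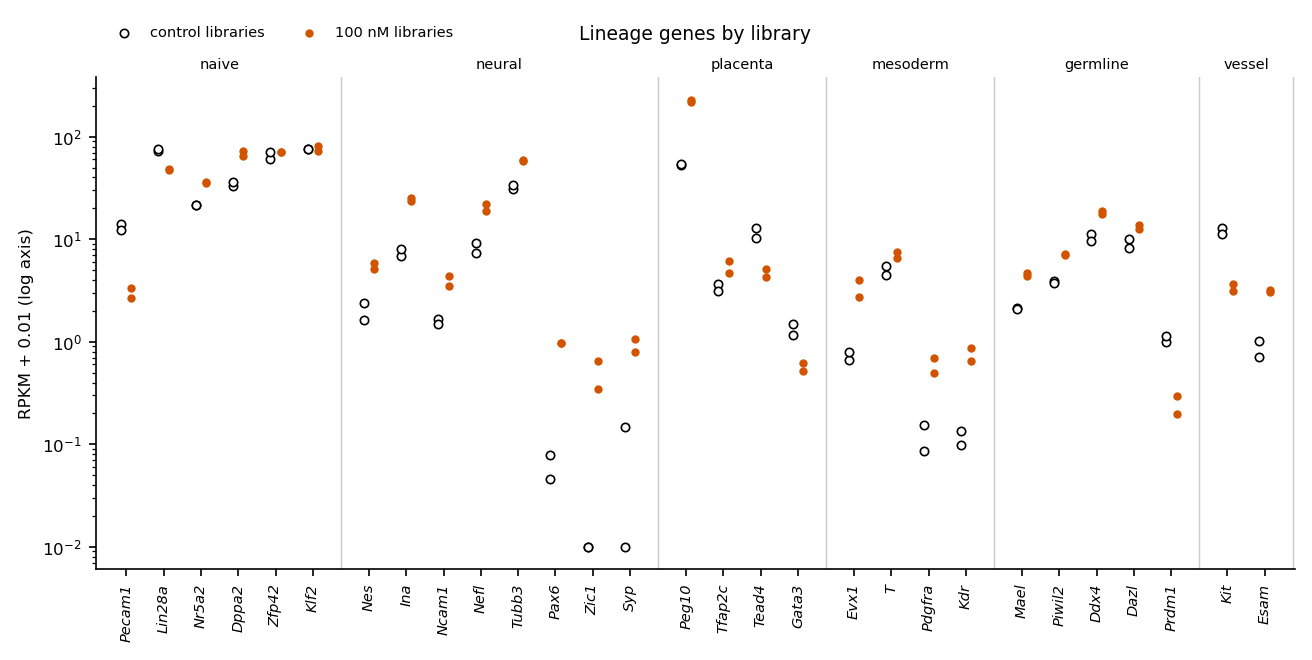
Each gene has its 2 control libraries as open circles and its 2 libraries at 100 nM as orange points, in RPKM with 0.01 added on a log axis. The neural and germline genes other than Prdm1 lie higher at 100 nM, Klf2 overlaps, and Pecam1, Lin28a, Tead4, Gata3, Prdm1 and Kit lie lower.

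Most genes of mSWI/SNF subunits and of Polycomb were not called, as held for 10173 of the 11462 tested genes. Lower members made up 3.85% of the tested mSWI/SNF genes, against 6.86% over all tested genes, and none was higher. Higher members made up 3.57% of the tested Polycomb genes, against 4.39% over all tested genes, and none was lower. Each share rests on 1 gene, and its difference from the background was not tested. At an adjusted p under 0.05 whatever the fold (edgeR), 7 mSWI/SNF genes were higher and 2 lower, and 7 Polycomb genes were higher. Of 26 tested mSWI/SNF subunit genes 1 was called, Smarcd3, which was lower, from 10.3 and 7.98 to 4.29 and 5.84 RPKM (-0.85 ± 0.20, adjusted p = 0.0027). Of 28 tested Polycomb genes 1 was called, Bmi1 of PRC1, which rose from 3.04 and 4.14 to 8.38 and 7.05 RPKM (1.1 ± 0.16, adjusted p = 9.7e-06). Imprinted genes, expressed from 1 parental allele, were called more often, 3 higher and 4 lower of 16 tested. Peg10 and its neighbour Sgce, both paternally expressed and together at chr6:4674350-4760516 (mm10), rose, as did Plagl1 (1.08). The maternally expressed noncoding genes Meg3 and Rian fell from 1.6 and 1.56 to 0.737 and 0.664 RPKM (-1.17 ± 0.20, adjusted p = 7.5e-05) and from 8.26 and 8.46 to 3.22 and 3.68 RPKM (-1.28 ± 0.16, adjusted p = 1e-06). Dio3, in the same imprinted block (chr12:109540996-110281097, mm10), had 23 and 21 read pairs in the control libraries and 1 and 0 at 100 nM, lower by a ratio of 44.7 with a 95% counting interval from 7.62 to 1807. H19 and Mest were the other falls (-1.5 and -0.81). The counting ignored strand although the library kit kept it, so reads from a gene and an antisense partner cannot be told apart. Smarcd3 was not called without control library 1 or 100 nM library 1 (log2 fold changes -0.65 to -0.64, adjusted p = 0.069 to 0.071). Sgce was not called without control library 1, control library 2 or 100 nM library 2 (log2 fold changes 0.74 to 1.23, adjusted p = 0.07 to 0.27). H19 was not called without control library 2 or 100 nM library 1 (log2 fold changes -1.15 to -1.01, adjusted p = 0.095 to 0.16). Sgce was not called with DESeq2's Wald test or TMM factors over all genes (log2 fold changes 0.91 to 1.0, adjusted p = 0.052 to 0.13).

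Among symbol families, solute carriers were called above the background share in both directions. Zinc-finger genes seldom rose, and their share of falls was near the background. Of 177 tested solute carriers, the transporters of small molecules, 20 were higher (11.3%) and 19 lower (10.7%). Slc7a2, a transporter of arginine and other cationic amino acids, rose from 1.8 and 2.08 to 9.8 and 8.47 RPKM (2.23 ± 0.13, adjusted p = 6.7e-13). Slc41a3, Slc38a5 and Slc51a gave the largest falls, at -2.69, -2.62 and -2.31 on the log2 scale. Of 359 tested zinc-finger genes 4 were higher (1.11%) and 18 lower (5.01%), from -1.61 for Zfp37 to 1.47 for Zscan5b on the log2 scale. Across the alternatives the count of lower genes ran from 11, without 100 nM library 1, to 26. Zscan5b was not called without control library 1 or 100 nM library 2 (log2 fold changes 1.18 to 1.25, adjusted p = 0.11 to 0.12).

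Receptor and channel genes mostly stayed under the filter, with 42 of 191 G-protein-coupled receptor genes and 42 of 244 ion channel genes above the filter. Of these receptor genes 9 were called, 4 higher and 5 lower. The serotonin receptor gene Htr5a fell from 2.42 and 3.08 to 0.502 and 0.582 RPKM (-2.34 ± 0.30, adjusted p = 1.3e-06), and the adhesion receptor genes Adgrb1 and Adgrb2 went apart, from 1.56 and 1.79 to 0.396 and 0.678 RPKM (-1.64 ± 0.29, adjusted p = 0.00011) and from 0.715 and 0.942 to 3.23 and 2.81 RPKM (1.86 ± 0.23, adjusted p = 1.1e-06). Of the channel genes 4 were higher (2 without control library 2) and 2 lower, with the potassium channel genes Kcnn1 at 1.60 and Kcnj12 at -2.31. Of 15 tested TNF family genes Tnfrsf19 rose (1.38), and Tnfrsf8 and Tnfrsf1a fell (-1.76 and -1.45). Tnfrsf1a was not called without control library 2 (log2 fold change -1.09, adjusted p = 0.071).

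Beyond the functional lists, the largest changes took in genes of many kinds. The first 5 rises by fitted fold were those of Cdx2, Cwh43, Ramp2, Pcsk1n and Atg10, and the first 5 falls those of Emp1, Dio3, Optn, Gpx2 and Ildr1. Among the next 15 rises, Sfmbt2, which encodes a Polycomb-related protein and hosts a cluster of miRNAs, stood at 1.7 and 1.36 RPKM in the control libraries and 8.59 and 8.23 RPKM at 100 nM (log2 fold change 2.46 ± 0.14, adjusted p = 5.4e-13). En1, a homeobox factor of the midbrain, rose from 0.401 and 0.317 to 1.87 and 1.78 RPKM (2.32 ± 0.50, adjusted p = 0.0011). Cgnl1, a paracingulin of tight junctions, rose from 1.49 and 1.43 to 6.57 and 7.09 RPKM (2.23 ± 0.15, adjusted p = 3.4e-11), and Dact1, a modulator of WNT signalling, from 0.454 and 0.602 to 2.27 and 2.46 RPKM (2.15 ± 0.35, adjusted p = 4.5e-05). Among the others were Car14, Ccno, Fgf13, Lcat, Hoxd13, Slc7a2, Evx1, Gnb4, Rab25 and Psors1c2, none above 9.80 RPKM in any of the 4 libraries. Lcat was not called without control library 1, 100 nM library 1 or 100 nM library 2 (log2 fold changes 1.67 to 2.44, adjusted p = 0.072 to 0.2). Hoxd13 was not called without control library 2 (log2 fold change 1.51, adjusted p = 0.052). Rab25 was not called without control library 1, control library 2 or 100 nM library 1 (log2 fold changes 1.74 to 2.62, adjusted p = 0.062 to 0.15). Psors1c2 was not called without control library 2 or 100 nM library 1 (log2 fold changes 1.35 to 1.66, adjusted p = 0.19 to 0.23). Lcat was not called with DESeq2's Wald test (log2 fold change 2.41, adjusted p = 0.086). Rab25 was not called with DESeq2's Wald test (log2 fold change 2.16, adjusted p = 0.1). Psors1c2 was not called with DESeq2's Wald test (log2 fold change 2.15, adjusted p = 0.081).

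Among the 6th to 20th falls, the lysosomal membrane gene Laptm5 stood at 49.2 and 50.1 RPKM in the control libraries and 4.32 and 3.52 RPKM at 100 nM (log2 fold change -3.66 ± 0.12, adjusted p = 7.2e-18). Tgm1, a transglutaminase that crosslinks the envelope of keratinocytes, fell from 19.7 and 19.7 to 2.57 and 2.11 RPKM (-3.07 ± 0.15, adjusted p = 3e-14), and Klf15, a Krüppel-like factor, from 8.19 and 9.03 to 0.717 and 0.354 RPKM (-3.99 ± 0.29, adjusted p = 7.9e-11). Plet1, a surface protein of placental and epithelial progenitors, fell from 7.03 and 8.42 to 0.802 and 0.44 RPKM (-3.62 ± 0.37, adjusted p = 4e-08). Hal, which breaks down histidine, fell from 4.15 and 4.69 to 0.179 and 0.412 RPKM (-3.87 ± 0.38, adjusted p = 1.7e-08). Ptges, a prostaglandin E synthase, fell from 2.86 and 2.75 to 0.451 and 0.178 RPKM (-3.14 ± 0.36, adjusted p = 2.5e-07), and Apobec2 from 5.89 and 6.11 to 0.675 and 0.4 RPKM (-3.44 ± 0.50, adjusted p = 8.2e-06). Smr3a had 10 and 9 read pairs in the control libraries and 0 and 2 at 100 nM, lower by a ratio of 9.66 with a 95% counting interval from 2.33 to 85.5, and Krt17, Krt42, Sfrp1, Inhbb, Serpinh1 and Tcl1 were in the set as well. Smr3a was not called without control library 1 or 100 nM library 1 (log2 fold changes -3.00 to -2.21, adjusted p = 0.068 to 0.14). Smr3a was not called with DESeq2's Wald test (log2 fold change -3.27, adjusted p = 0.064).

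At the lower doses the same genes had smaller values. The comparisons at 0.3, 1, 3 and 10 nM share the 2 control libraries with that at 100 nM, and the genes were chosen at 100 nM, so their values are given side by side only. For the 786 lower genes the median log2 fold change was -0.15, -0.32, -0.52, -0.77 and -1.03 at 0.3, 1, 3, 10 and 100 nM. For the 503 higher genes it was 0.14, 0.29, 0.51, 0.69 and 0.89. Serpinh1 had log2 fold changes of -0.63, -1.14, -1.82, -2.32 and -3.09 at these doses, and Fn1 had -0.39, -0.59, -0.83, -1.23 and -1.47.

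Single genes departed from that course in both directions. Some had low values until the highest doses: Tgm1 had 0.04, 0.06, -0.54, -1.06 and -3.07, Krt42 had 0.04, 0.12, -0.26, -1.26 and -3.33 and Mycn had 0.00, 0.02, 0.30, 0.74 and 1.26. Lefty2 had passed its value at 100 nM by 1 nM, with -0.78, -1.09, -1.14, -1.01 and -0.82. Id1, not called at 100 nM, had 0.33, 0.42, 0.56, 0.68 and -0.02. The 14 tested neural genes had median log2 fold changes of 0.02, 0.18, 0.39, 0.65 and 0.53 at the 5 doses.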

How the data were processed

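Total RNA of Brg1 degron knock-in mES cells was sequenced with a SMART-Seq Stranded kit. Per the submitters' processing notes the authors trimmed reads with Trim Galore, aligned them to mm10 with HISAT2 and counted read pairs per gene with featureCounts (v2.0.1, per the file header); the deposited values are raw counts, with no strand used and read pairs of multiple mapping left out. A single table held 24421 genes and the 12 libraries. Groups came from the labels. The study describes its samples as biological replicates; p-values measure only the spread between these libraries.

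RPKM were computed from the counts, exon lengths and library totals scaled by TMM factors, and the test took genes that averaged 1 RPKM or more across the 4 libraries. The filter used TMM factors over all genes with a count. The printed RPKM used those over the tested genes. The comparison of 100 nM with control was fitted in edgeR 4.0.16 (R 4.3.3) by the quasi-likelihood test over all 12 libraries, with TMM factors over the tested genes and Benjamini-Hochberg adjustment over all of them. Called means an adjusted p under 0.05 and a change over 1.5-fold. Genes under the filter were called in a fit of all genes with a count, with TMM factors over those genes. Their counting intervals (95%) cover counting error only. The fit was tested on simulated data.

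The members and the lists were chosen with earlier results of these data known. Named genes were the 4 largest called changes of each list or family whose treated libraries both lay beyond both controls, key genes marked in the lists whatever their values, and the 6th to 20th largest rise and fall, leaving out clone and model names. Genes under the filter, Hap1, Ifitm2 and members completing a count of 5 or fewer were added after their values had been seen. From the symbol families 14 genes that matched by spelling alone were removed. DESeq2 1.42.0, other scalings, a replicate block, no filter and leaving out each library were the alternatives. A survey of promoter motifs was void, because the promoter table covered fewer than 80% of the called genes, and no sequence is printed. A few genes and 1 symbol family are not reported here.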

Additional observations from a re-analysis of the deposited data

How the results depend on the processing

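Across 14 alternatives more genes fell than rose at 100 nM. The counts of 503 higher and 786 lower genes became 782 and 1072 with no filter on low values. That fit also took its normalization factors over all genes with a count, and no alternative dropped the filter alone. With no fold minimum the counts were 1141 and 1526. They came to 376 and 649 with DESeq2's Wald test and to 394 and 967 with TMM factors over all genes with a count, an alternative added after seeing the data. Leaving out 1 library gave 402 to 431 higher and 662 to 695 lower genes. The replicate numbers did not pair the samples (correlation of deviations -0.04 between control and 100 nM), and the replicate block gave 501 and 772. Of 231 named genes called, 157 were called under every alternative.

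The reversed values, on the log2 scale, all belong to genes not called. With TMM factors over all genes and with no filter they were the same, -0.071 for Fasn, -0.05 for Klf2, -0.036 for Npm1, -0.054 for Socs3, -0.057 for Sqstm1. With no normalization factors they were 0.021 for Id1, 0.039 for Ncl and 0.018 for Slc2a1, and Ncl was at 0 with DESeq2's Wald test and size factors and at 0.014 with upper-quartile factors. With 1 library left out at a time, genes that changed sign ran from -0.319 to 0.075 for B2m, from -0.018 to 0.036 for Fasn, from -0.141 to 0.111 for Id1, from -0.026 to 0.365 for Id3, from -0.052 to 0.107 for Klf2, from -0.748 to 0.118 for Krt18, from -0.039 to 0.028 for Ncl, from -0.052 to 0.111 for Socs3 and from -0.042 to 0.09 for Sqstm1. The cause was not tested. Of 1624 list counts recomputed, 203 moved over 1.5 times. At 5973600 to 6184807 read pairs a library, genes under 1 RPKM rested on few counts, and differences there may go undetected.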
